A study of Mus musculus with 16 samples.

Results

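The genes described here are 10 genes that store triglyceride in lipid droplets or break it down: G0s2, Pnpla2, Abhd5, Lipe, Mgll, Plin2, Plin4, Plin5, Dgat2 and Cidea. They were found by symbol among the 14538 genes of the deposited table, and all 10 passed the minimum mean of 10 normalized counts that left 11841 genes for testing. They were chosen by function with earlier results of these same comparisons in view, in which G0s2 had already stood out between GDF15-treated and pair-fed mice. Their fold changes are therefore given as a description, with standard errors and intervals and with no p-value.

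RNA of the tibialis anterior, a hindlimb muscle made mostly of fast fibres, was sequenced from 16 mice with 1 library per mouse. All were wild-type (WT) mice, C57BL/6 by the labels and C57BL/6J males by the methods of the study, that were given a NASH diet, a diet used to produce fatty liver, and housing at 29 °C from 8 weeks of age. The 5 Vehicle mice and the 6 GDF15 mice differed in the daily subcutaneous injection, which in the GDF15 group was recombinant GDF15, a circulating factor that lowers food intake. The labels list 0.3, 1 and 5 nmol/kg for the study as a whole, and the sources used here do not say which dose these libraries stand for, nor for how many days. The food of the 5 PairFed mice, numbered 2 to 6, was limited to the intake of the GDF15 mice, with a lag of 1 day. Equal mouse numbers in different groups are different animals. The comparison of GDF15 with pair-feeding asks what the treatment does beyond lower intake, and the comparison of pair-feeding with vehicle asks what lower intake does alone.

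Lipid droplets are stores of triglyceride inside the cell, coated by proteins of the perilipin family. In muscle they lie beside mitochondria and feed fatty acids to them. Adipose triglyceride lipase, encoded by Pnpla2, removes the first fatty acid; the co-activator ABHD5 switches it on and the small protein G0S2 inhibits it. Hormone-sensitive lipase (Lipe) and monoacylglycerol lipase (Mgll) then release the remaining fatty acids, and DGAT2 joins fatty acid to diacylglycerol to rebuild triglyceride.

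The promoters of G0s2 and Plin5 are shown because these were the only 2 of the 10 genes that passed the thresholds used for all genes in any of the 3 comparisons. Each sequence covers 250 bases before to 50 bases after a transcript start in RefSeq (GRCm38.p6), read 5′ to 3′ on the strand of the gene. Capitals mark the 6 letters AGGTCA, the core that many nuclear receptors recognise.
G0s2, chr1:193273139-193273438, minus strand: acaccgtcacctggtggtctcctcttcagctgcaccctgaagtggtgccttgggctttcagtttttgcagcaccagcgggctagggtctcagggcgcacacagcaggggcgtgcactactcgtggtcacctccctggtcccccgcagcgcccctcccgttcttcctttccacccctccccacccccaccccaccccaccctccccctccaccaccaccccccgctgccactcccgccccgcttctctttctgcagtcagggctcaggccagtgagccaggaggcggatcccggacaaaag
Plin5, chr17:56117499-56117798, minus strand: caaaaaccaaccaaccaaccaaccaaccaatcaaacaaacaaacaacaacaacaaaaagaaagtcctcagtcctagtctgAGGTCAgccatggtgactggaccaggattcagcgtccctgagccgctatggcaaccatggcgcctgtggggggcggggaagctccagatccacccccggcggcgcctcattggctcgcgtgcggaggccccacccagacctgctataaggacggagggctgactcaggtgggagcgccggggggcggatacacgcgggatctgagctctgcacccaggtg

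The Plin5 window holds AGGTCA once, at position −170 from the start, and the window of a second Plin5 start holds it at position 13. The G0s2 window holds none of the motifs searched on both strands, which were the nuclear receptor core AGGTCA, its direct repeat with 1 base between (the PPAR response element), the cAMP response element TGACGTCA, the E-box CACGTG, the TATA box TATAAA and the forkhead site GTAAACA. The table held 11 promoters of 8 of the genes and no entry for Dgat2 and Cidea. AGGTCA, which each copy of the direct repeat also contains, was found in a Plin2 window at −218 and in an Abhd5 window at −69, both on the reverse strand. The E-box was found in windows of Plin2, Mgll and Lipe, and the forkhead site in windows of Mgll and Lipe. Among all 32851 promoters of the table, 16.3% held AGGTCA, 7.15% the E-box, 3.65% the forkhead site, 13.6% the TATA box, 1.79% the cAMP response element and 0.0396% the direct repeat. A match of letters is a description and not evidence of binding.

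G0s2 lies on chromosome 1 from 193272161 to 193273217 (GRCm38, GENCODE vM21) and has a single annotated transcript. In GDF15-treated mice it ranged from 115 to 176 normalized counts, with a median of 162. The pair-fed mice had 76.7, 113, 104, 102 and 94.3, and the vehicle-treated mice had 114, 107, 146, 134 and 117. Every GDF15-treated mouse therefore lay above every pair-fed mouse, although the lowest GDF15 value was only just above the highest pair-fed value, and the vehicle group overlapped both. The means were 151 ± 26.8 with GDF15 (SD, n = 6), 97.9 ± 13.5 with pair-feeding (SD, n = 5) and 124 ± 15.97 with vehicle (SD, n = 5). GDF15 against pair-fed gave a log2 fold change of 0.61 (SE 0.13), a fold of 1.52. Against vehicle, the level was 0.27 higher with GDF15 (SE 0.13) and −0.34 with pair-feeding (SE 0.14) on the log2 scale, so the GDF15 mean lay above that of vehicle and the pair-fed mean below it.

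G0s2 was the only 1 of the 10 genes called between GDF15-treated and pair-fed mice, where a call needs an adjusted p under 0.1 in limma and a log2 fold change over 0.6 in size. Of all tested genes, 0.279% were called in this comparison. The same gene alone passed the adjusted p without the fold threshold, which 2.17% of tested genes passed, and alone had groups that did not overlap, as 1.77% did. This contrast was part of what the genes were selected on, so nothing is read from these counts. The fold of G0s2 lay just past the fold threshold. Its log2 fold change was between 0.52 and 0.68 with any single library left out, and it was under 0.6 without GDF15 mouse 1, 2, 3 or 5 or without PairFed mouse 2 or 6, where the lowest value came without PairFed mouse 2.

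Pnpla2 (chromosome 7, 141455198 to 141460743), the lipase that G0S2 inhibits, was at 3290, 4340, 4499, 3787 and 3471 normalized counts in pair-fed mice. It ranged from 3781 to 5387 with a median of 4674 in GDF15-treated mice, and the vehicle-treated mice had 3732, 4814, 4212, 4394 and 4144. The 3 groups overlapped, with the pair-fed group lowest and the GDF15 group highest by mean. For GDF15 against pair-fed the log2 fold change was 0.25 (SE 0.10, 95% interval 0.05 to 0.45), and Pnpla2 and G0s2 were the 2 genes of the 10 whose interval did not include 0 in this comparison. Lipase and inhibitor were thus both higher by mean in GDF15-treated than in pair-fed mice, the inhibitor by more.

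Abhd5 (chromosome 9, 122351608 to 122381524), the co-activator, varied least of the 10. Its group means were 660 ± 44.3 with vehicle, 681 ± 52.6 with GDF15 and 669 ± 68.9 with pair-feeding (SD), and the largest of its log2 fold changes in size was 0.05, with an interval from −0.10 to 0.19. Lipe (chromosome 7, 25379527 to 25398710) had means of 486 ± 52.7, 500 ± 85.7 and 466 ± 39.2 in the same order. Its 3 log2 fold changes lay between −0.06 and 0.09, and the intervals allow differences up to 0.30. The sign of Lipe for GDF15 against vehicle changed in 6 of 30 alternative settings.

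Mgll (chromosome 6, 88724412 to 88828360), which acts last in the release of fatty acids, was at 1221, 1235, 1023, 990 and 1067 normalized counts in vehicle-treated mice and at 812, 1063, 1026, 950 and 896 in pair-fed mice. In GDF15-treated mice it ranged from 852 to 1063 with a median of 995. The groups overlapped, but 3 vehicle-treated mice lay above all mice of both other groups. Against vehicle, the log2 fold change was −0.18 (SE 0.08) for GDF15 and −0.22 (SE 0.09) for pair-feeding, and neither was called. Both comparisons use the same 5 vehicle libraries.

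**Figure D1:**
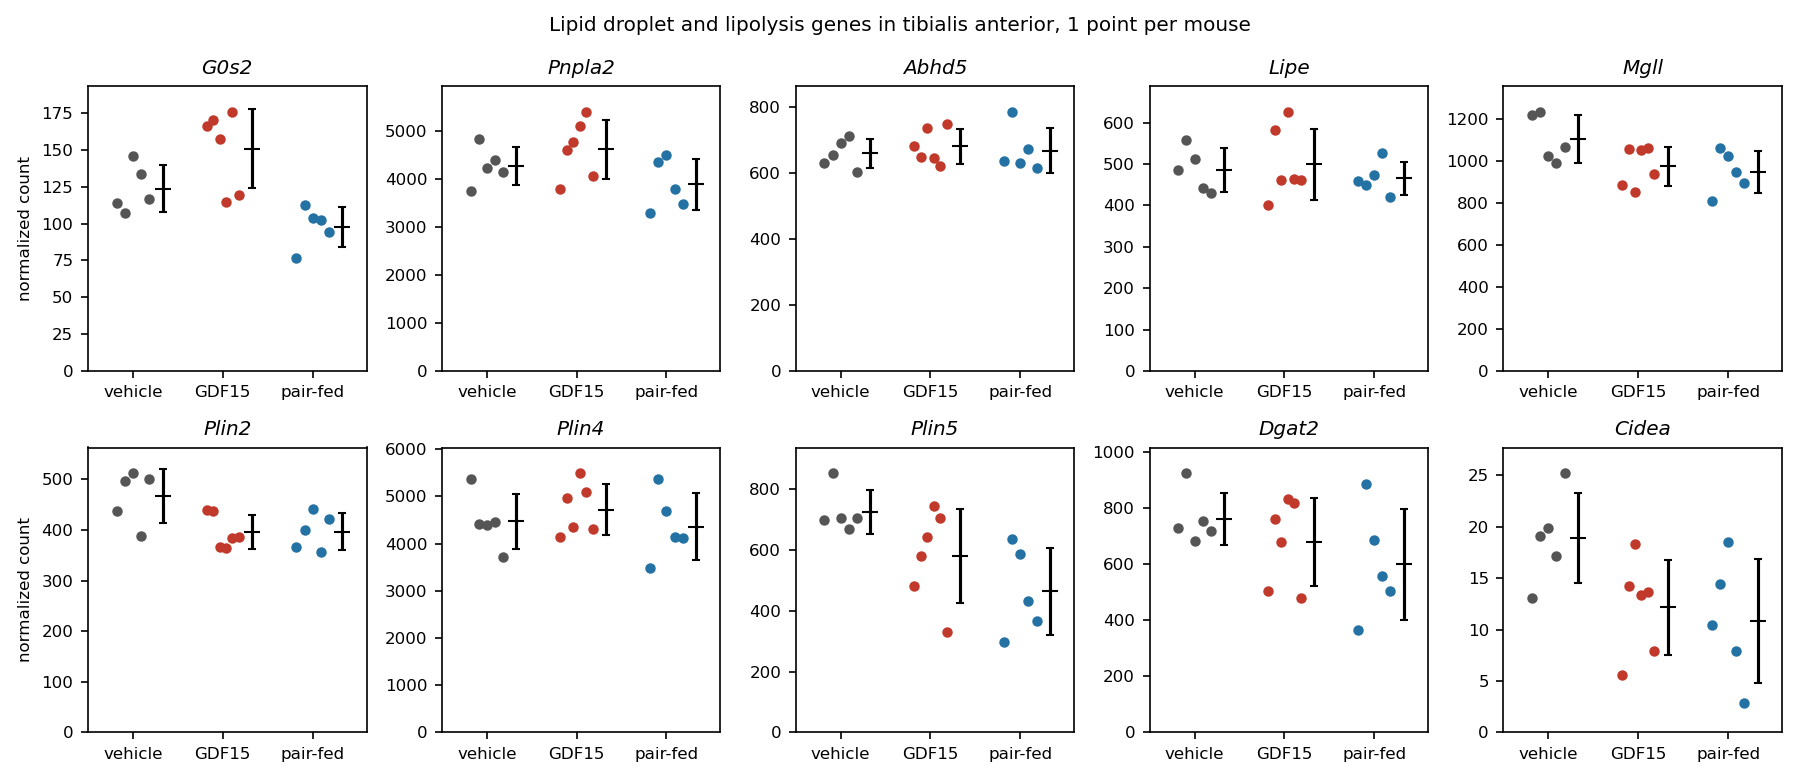
Normalized counts (vertical axes, each from 0) of the 10 genes by group (vehicle, GDF15 and pair-fed), with 1 point per mouse and the mean with SD beside each group. G0s2 does not overlap between GDF15-treated and pair-fed mice, Plin5 does not overlap between pair-fed and vehicle-treated mice, and all other genes overlap between all groups.

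Plin5 encodes the perilipin of oxidative tissues, which ties droplets to mitochondria. It lies on chromosome 17 from 56111601 to 56117596, only 1797 bases from Plin4 on the same strand. The vehicle-treated mice had 698, 851, 704, 667 and 705 normalized counts, and the pair-fed mice had 297, 636, 586, 431 and 367. In GDF15-treated mice Plin5 ranged from 329 to 743 with a median of 611. Every pair-fed mouse lay below every vehicle-treated mouse, whereas the GDF15 group spread across both. The means were 725 ± 72.1 with vehicle (SD, n = 5), 579 ± 154 with GDF15 (SD, n = 6) and 463 ± 144 with pair-feeding (SD, n = 5). The coefficient of variation was 9.95% with vehicle against 26.6% and 31.0% in the other two groups.

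The log2 fold change of Plin5 was −0.70 for pair-feeding against vehicle (SE 0.21, 95% interval −1.13 to −0.26) and −0.37 for GDF15 against vehicle (SE 0.20). Plin5 was the only 1 of the 10 genes called between pair-fed and vehicle-treated mice, where 0.819% of tested genes were called. It alone of the 10 passed the adjusted p without the fold threshold (6.37% of tested genes) and alone had groups that did not overlap (5.44%). Without PairFed mouse 2, which had the lowest Plin5 level of all, the log2 fold change was −0.55. With any single library left out it stayed between −0.83 and −0.55, and the call was lost in 7 of 16 cases, namely without Vehicle mouse 1, 2, 3 or 5 or PairFed mouse 2, 5 or 6.

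Plin2 (chromosome 4, 86648386 to 86670060), the perilipin of most cell types, had 438, 497, 512, 387 and 501 normalized counts in vehicle-treated mice and 366, 400, 442, 356 and 422 in pair-fed mice. Its range with GDF15 was 365 to 440, with a median of 386. In the vehicle group 3 mice lay above all mice of the other two groups, and 2 did not. The log2 fold change was −0.23 in both comparisons with vehicle (SE 0.08 for GDF15 and 0.09 for pair-feeding), and for GDF15 against pair-fed the value was −0.00, with an interval from −0.17 to 0.17. Plin2 was not called in any comparison. Plin4 (chromosome 17, 56100591 to 56109803), the large perilipin of fat cells and muscle, had means of 4473 ± 590 with vehicle, 4724 ± 539 with GDF15 and 4358 ± 707 with pair-feeding (SD). Its log2 fold changes lay between −0.04 and 0.12.

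Dgat2 (chromosome 7, 99153658 to 99182719) was at 729, 925, 682, 753 and 720 normalized counts in vehicle-treated mice and at 364, 886, 686, 559 and 503 in pair-fed mice. It ranged from 480 to 835 with a median of 721 in GDF15-treated mice. The pair-fed group held both the lowest value of all and the second highest. The log2 fold change against vehicle was −0.40 for pair-feeding (SE 0.20, interval −0.81 to 0.01) and −0.19 for GDF15 (SE 0.19). Cidea (chromosome 18, 67343604 to 67367785), which enlarges droplets in brown fat cells and is scarce in muscle, had 13.1, 19.1, 19.9, 17.2 and 25.2 normalized counts in vehicle-treated mice, and 10.4, 14.4, 18.5, 7.94 and 2.91 in pair-fed mice. With GDF15 its range was 5.62 to 18.3, with a median of 13.5. Cidea had a log2 fold change of −0.91 for pair-feeding (SE 0.39) and −0.65 for GDF15 (SE 0.37) against vehicle. These were the largest of the 10 in size in the 2 comparisons, but the groups overlapped and the intervals were wide (−1.72 to −0.10 and −1.43 to 0.13).

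Across the 10 genes, 9 were lower and 1 was higher in pair-fed than in vehicle-treated mice, with a median log2 fold change of −0.23 beside 0.0013 over all tested genes. Between GDF15-treated and vehicle-treated mice 5 were higher and 5 lower, with a median of −0.08 beside 0.0008. None was called in that comparison, in which 0.304% of tested genes were called, 0.769% passed the adjusted p alone and 1.65% did not overlap. By the same limma fit, 2 of the 10 intervals did not include 0 there, those of Mgll and Plin2, which is the same as an unadjusted p under 0.05, as for 11.0% of all tested genes. The count was 5 for pair-feeding against vehicle (Cidea, G0s2, Mgll, Plin2 and Plin5), beside 18.9% of all tested genes, and 2 for GDF15 against pair-fed, beside 13.2%. On the deposited log2 scale none was called between GDF15-treated and vehicle-treated mice either. Between GDF15-treated and pair-fed mice 9 were higher and 1 lower, with a median of 0.17 beside 0.0025. The 3 comparisons share libraries, so these counts are not independent of one another. The genes were also chosen with results of these comparisons in view, and several varied together between mice. Nothing is therefore read from these counts and medians.

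**Figure D2:**
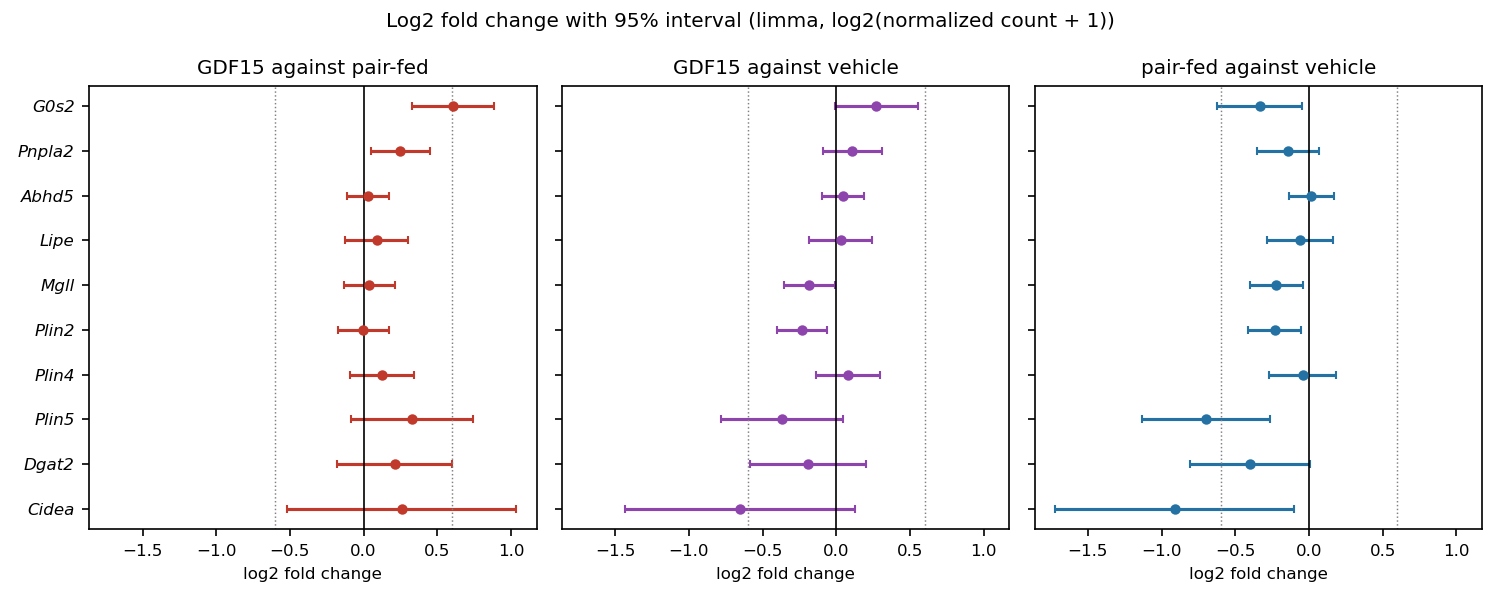
Log2 fold changes (horizontal axes) of the 10 genes in the 3 comparisons, with points for the limma estimate, bars for the 95% interval and dotted lines at the fold threshold of 0.6 in either direction. Only the estimates of G0s2 (GDF15 against pair-fed), Plin5 (pair-fed against vehicle) and Cidea (both comparisons with vehicle) lie outside the dotted lines.

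Levels were compared between genes per kb of the median annotated protein-coding transcript, in vehicle-treated mice. Pnpla2 was the highest at 3060 ± 283 normalized counts per kb (SD, n = 5), well above Plin4 at 777 ± 103. Plin2 at 661, Dgat2 at 577, Mgll at 444, Plin5 at 365, Abhd5 at 256, Lipe at 167, G0s2 at 142 and Cidea at 17.0 followed. The ranges over mice did not overlap between Pnpla2 and Plin4, Dgat2 and Mgll, Plin5 and Abhd5, Abhd5 and Lipe, or G0s2 and Cidea. Plin4 and Plin2, Plin2 and Dgat2, Mgll and Plin5, and Lipe and G0s2 overlapped. The lipase thus stood far above its inhibitor and its co-activator on this scale. The order depends on the length used. Per kb of the longest transcript Pnpla2 was at 1622 and Plin4 at 777, followed by Plin5 at 365, Dgat2 at 337, Mgll at 277, Plin2 at 248, Abhd5 at 209, G0s2 at 142, Lipe at 131 and Cidea at 17.0. Plin2 and Plin5 thus exchanged places, as did Lipe and G0s2. Per kb of the median transcript, G0s2 with GDF15 was at 173, next to Lipe at 171, and with pair-feeding it was at 112.

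Within groups, some of the genes varied together between mice. Over the 16 libraries, with each group's mean removed, 36 of the 45 pairs of genes were positively correlated, with a median Pearson r of 0.27, and 9 pairs had a Benjamini-Hochberg adjusted p under 0.1 over the 45 pairs in a two-sided permutation test within groups. All 9 were positive and had r of at least 0.64, as had 0.945% of all 70098720 pairs of tested genes, whose median r was −0.0003. Many other genes lay as close to each: r with Plin5 put Dgat2 at rank 4 of all tested genes, Pnpla2 at 55, Plin4 at 309 and Mgll at 427. Plin5 and Dgat2 were the closest pair, with r = 0.93 (Spearman rho 0.93, permutation adjusted p = 0.00135), and r was still 0.93 without the 2 libraries farthest from the median. Pnpla2 and Dgat2 followed with r = 0.88 (rho 0.89, permutation adjusted p = 0.00158), and Pnpla2 and Plin5 had r = 0.85 (rho 0.86, permutation adjusted p = 0.0051). Without 2 libraries these were 0.86 and 0.88. A droplet coat, the enzyme that makes triglyceride and the lipase that breaks it down were thus high in the same mice. The PairFed mouse 2 had the lowest Plin5, Dgat2 and Pnpla2 of its group, and PairFed mouse 3 had its highest Plin5 and Dgat2. Mgll and Plin4 with each other (r = 0.79) and with Dgat2 (0.77 and 0.78) and Plin5 (0.64 and 0.68) made 5 of the other pairs, and Pnpla2 with Cidea (0.69) was the last. Adjusted p by permutation lay between 0.0134 and 0.0597 for these 6, and without 2 libraries r was between 0.49 and 0.70. Plin5 then had r = 0.51 with Plin4 and 0.49 with Mgll, with unadjusted permutation p of 0.0616 and 0.0923, so these 2 relations did not pass in the fewer libraries left. G0s2, Abhd5, Plin2 and Lipe were in none of the 9 pairs.

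Some markers of fibre type moved with this shared variation and others did not. The myosin Myh2, which marks the oxidative fast fibres of type IIa, was singled out after the values were seen, so its correlations are given as a description. It ranged from 22464 to 36579 normalized counts in vehicle-treated, 13481 to 33802 in GDF15-treated and 9789 to 28999 in pair-fed mice. Within groups its r was 0.84 with Plin5, 0.75 with Dgat2, 0.69 with Pnpla2, 0.58 with Plin4 and 0.46 with G0s2. Without GDF15 mouse 6 and PairFed mouse 2, the 2 libraries with the least Myh2, these were 0.65, 0.50, 0.55, 0.37 and −0.01. For the other fibre markers listed, r with Plin5 was 0.76 for Myh1, a myosin of fast fibres of type IIx, and 0.73 for Myl3. It was −0.10 for Myh7, the slow myosin, 0.23 for Tnnt1 and 0.14 for Tnni1. Against the fast fibre and general muscle genes it was −0.82 for Tnnt3, −0.65 for Acta1, −0.47 for Ckm and −0.68 for Myh4, the myosin of the fastest fibres, type IIb. The markers of the slow list thus did not move with Plin5 as a group.

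Between pair-fed and vehicle-treated mice the fibre markers also went in different directions. Myh1 was lower (log2 fold change −0.68, SE 0.14, limma adjusted p = 0.0123), and Ckm had 0.15 (SE 0.05, adjusted p = 0.0997), just under the limit of 0.1. The other markers did not pass. Myh2 had −0.61 (SE 0.26, adjusted p = 0.216) and Myl3 −0.92 (SE 0.41, adjusted p = 0.233), whereas Myh4 had 0.18, Acta1 0.10, Tnnt3 0.09, Myh7 0.80, Tnni1 0.42 and Tnnt1 0.23, with adjusted p between 0.272 and 0.765. Myh7 was uneven between mice, from 33.1 to 746 normalized counts with pair-feeding and from 45.6 to 1094 with GDF15.

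With Myh2 as a covariate in the fit, the log2 fold change of Plin5 for pair-feeding against vehicle was −0.30 (SE 0.13) in place of −0.70 and was not called, and that of Dgat2 was −0.06 in place of −0.40. That of G0s2 for GDF15 against pair-fed was 0.52 (SE 0.13) in place of 0.61, and it passed neither the fold threshold nor the adjusted p. Pnpla2 in the same comparison had 0.15 in place of 0.25, with an interval from −0.01 to 0.31. Myh2 was singled out after its values were seen, followed Plin5 and Dgat2 within groups and was lower by mean with pair-feeding. Smaller folds with it as a covariate are therefore given as a description, and no other fibre marker was fitted in this way. A change in the share of a fibre type and a change in RNA per fibre cannot be told apart in whole muscle.

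Several of the 10 genes are abundant in fat cells, and fat cell markers varied widely between mice. The summed normalized counts of 8 white adipocyte markers, of which 7 were tested, were 109 to 456 in vehicle-treated, 76.2 to 1267 in GDF15-treated and 254 to 655 in pair-fed mice. Adiponectin (Adipoq) ranged from 4.88 to 239 counts over all mice and Adrb3 from 0 to 10.9. None of the 10 genes was correlated within groups with the mean log2 level of these markers by the permutation test (lowest adjusted p = 0.815 for r and 0.386 for rho), and 0 of the 10 had an unadjusted p under 0.05 for r. The highest r was 0.48 for Lipe (rho 0.36, permutation p = 0.163) and the next 0.41 for Plin2 (permutation p = 0.11), whose rho of 0.55 had an unadjusted permutation p of 0.0386. Without GDF15 mice 2 and 5 they were 0.37 and 0.37, while Mgll had 0.52 and Abhd5 −0.60, with unadjusted permutation p of 0.0814 and 0.0368. For G0s2 r was −0.19 and for Plin5 −0.01. With these markers as a covariate, the log2 fold change of G0s2 between GDF15-treated and pair-fed mice was 0.60 and that of Plin5 for pair-feeding against vehicle −0.69, and both were called. Of the brown adipocyte markers, Ucp1 is not listed, and Zic1 and Kcnk3 together summed to between 6.69 and 86.6. Macrophage markers summed to between 150 and 403.

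The muscle markers were as the label says: 5 genes of fast fibres or of skeletal muscle in general made up 15.27% to 15.88% of all normalized counts by group. The list of slow fibre markers, which includes Myh2, summed to between 10286 and 37650. Myh2, a fast myosin, made up most of this sum, at 9789 to 36579 counts, while Myh7, the slow myosin, had 33.1 to 1094. The sum is therefore not a measure of slow fibres. The approximate depth of the libraries was 9486310 to 15039282 reads, with medians of 13888125 for vehicle, 12131446 for GDF15 and 14288379 for pair-feeding. The medians of both other groups lay above the deepest GDF15 library. With log2 depth as a covariate, the log2 fold change of G0s2 between GDF15-treated and pair-fed mice was 0.70 and that of Plin5 for pair-feeding against vehicle −0.69, and both were still called. Counting of reads alone would give an SD of 9.73 counts for G0s2 in pair-fed and 12.7 in GDF15-treated mice, beside measured SDs of 13.5 and 26.8, and of 3.19 for Cidea in pair-fed mice beside 5.99. For Plin5 it would give 21.1 beside 144.

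**Figure D3:**
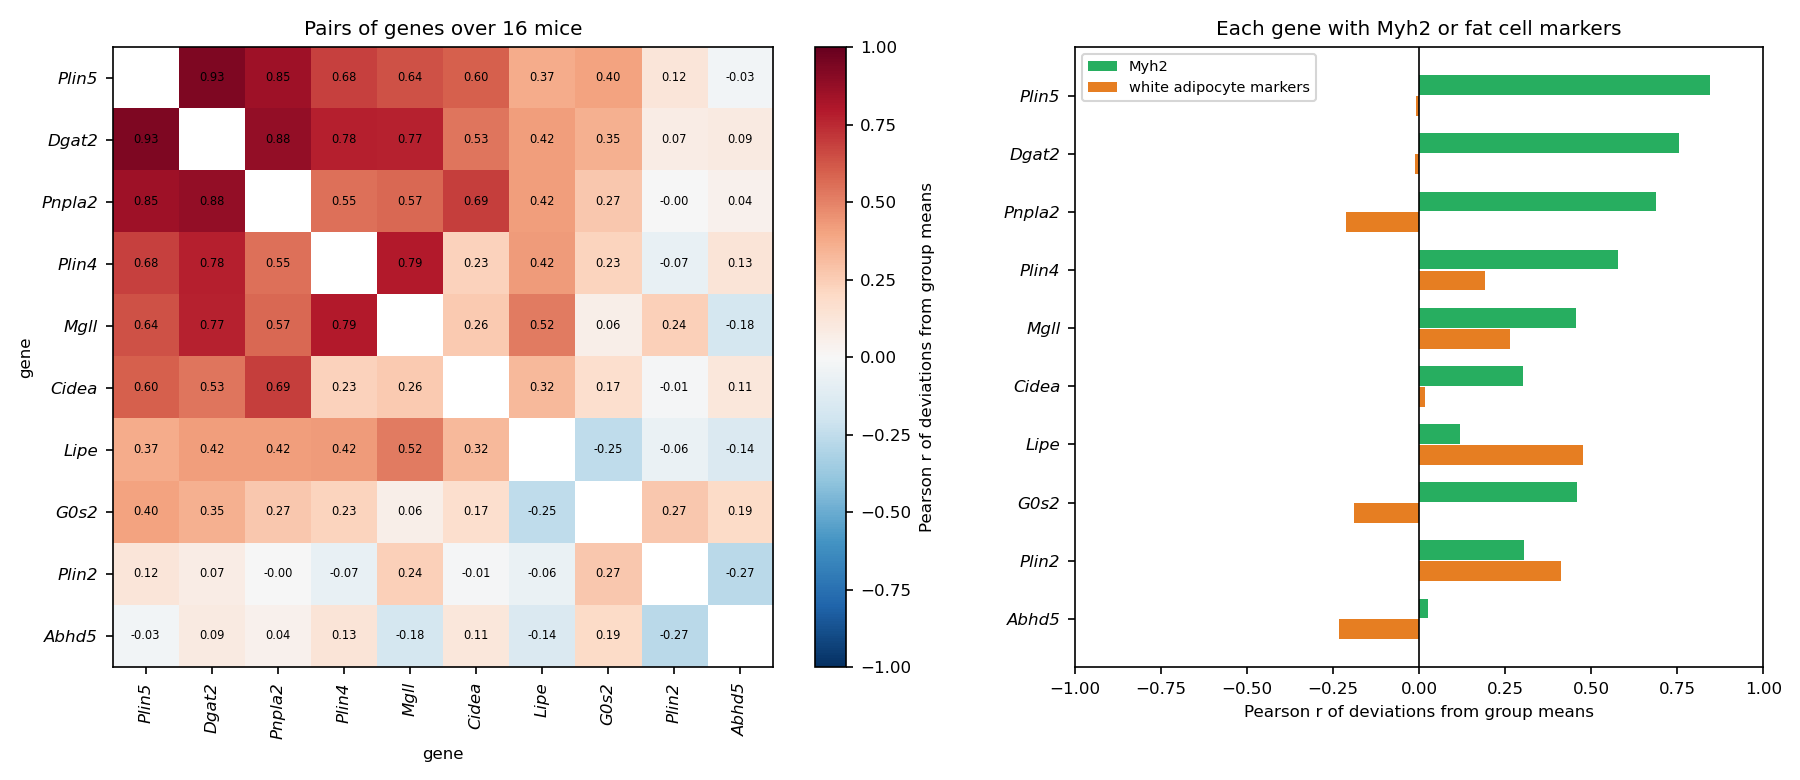
Left, Pearson r between pairs of the 10 genes over 16 mice after removal of group means (colour scale from −1 to 1); right, r of each gene with Myh2 and with the mean of the white adipocyte markers (horizontal axis). Plin5, Dgat2, Pnpla2, Plin4 and Mgll form a block of positive values, and r with Myh2 is 0.84 for Plin5 while r with fat cell markers is −0.01.

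Over the 16 libraries as they stand, groups included, the tested genes most like Plin5 were Ephx2 (r = 0.97), Cd36 (r = 0.96) and Acadvl (r = 0.96), with Dgat2 at rank 20 (r = 0.93). Cd36 takes fatty acid up into the cell, and Acadvl starts the oxidation of long-chain fatty acids. Those most like Pnpla2 were Ddo, Dmpk and Pex6 (r = 0.91, 0.90 and 0.90), and those most like Cidea were Kremen1, Pmpcb and Cmtm4 (0.94, 0.91 and 0.90). G0s2 had lower values, of which the highest were 0.85 for Pde2a, a cyclic nucleotide phosphodiesterase, 0.81 for Arl4d and 0.80 for Hnrnph3. Pnpla2 was at rank 234 for G0s2 (r = 0.56). These are the highest of 11841 values and share group differences and libraries, so they are given without a test.

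Other genes of triglyceride storage and use were examined as 5 lists of 55 genes, of which 52 were in the table and 51 were tested. For pair-feeding against vehicle, 2 of the 51 were called, both lower, beside 0.819% of all tested genes, and 7 passed the adjusted p of limma alone, all lower, beside 6.37%. Pnpla3, a lipase relative of Pnpla2 that binds its co-activator, had 43.6, 36.5, 48.7, 38.7 and 31.0 normalized counts with vehicle and 18.0, 17.0, 19.2, 19.5 and 12.7 with pair-feeding. With GDF15 it ranged from 21.4 to 38.5 with a median of 27.7. All pair-fed mice lay below all mice of both other groups. The log2 fold change of Pnpla3 was −1.15 for pair-feeding against vehicle (SE 0.19, adjusted p = 0.00298) and 0.68 for GDF15 against pair-fed (SE 0.18, adjusted p = 0.0789), the only call among the 51 in that comparison, in which 0.279% of all tested genes were called. Against vehicle, the pair-feeding call of Pnpla3 was kept in 28 of 29 alternatives, and the adjusted p was under 0.1 in 29 of 29. The log2 fold change then lay between −1.24 and −0.24. Against pair-feeding, the GDF15 call was kept in 14 of 29, with adjusted p from 0.0507 to 0.268, and was lost without any single one of GDF15 mice 2 to 6 and PairFed mice 2, 5 and 6, with adjusted p up to 0.179.

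Fabp3, the fatty acid binding protein of muscle, was the other gene called between pair-fed and vehicle-treated mice (log2 fold change −0.65, SE 0.19, adjusted p = 0.0667). It was not called without PairFed mouse 2, 5 or 6 or Vehicle mouse 1, 2, 4 or 5, where adjusted p was between 0.103 and 0.174, nor with Myh2 as a covariate (−0.37, adjusted p = 0.374). The other 5 genes fell by less than the fold threshold. Fitm2, which partitions new triglyceride into droplets, fell by 0.26 on the log2 scale (SE 0.06, adjusted p = 0.0178), with values of 1809 to 2121 in vehicle-treated and 1500 to 1754 in pair-fed mice. The acyltransferase Agpat3 fell by 0.26 (SE 0.07, adjusted p = 0.0495), the carnitine carrier Slc25a20 by 0.37 (SE 0.10, adjusted p = 0.0534), the acyl-CoA dehydrogenase Acadl by 0.36 (SE 0.12, adjusted p = 0.0913) and Cd36 by 0.48 (SE 0.15, adjusted p = 0.0936). In 30 alternatives the adjusted p was under 0.1 in all for Fitm2, in 23 for Agpat3, 22 for Slc25a20, 15 for Cd36 and 14 for Acadl. With Myh2 as a covariate, Fitm2 (adjusted p = 0.0949) and Pnpla3 (adjusted p = 0.0155) stayed under 0.1 and the other 5 did not, with adjusted p of 0.287 for Agpat3 as the lowest of those. The log2 fold change was then smaller in size for Fitm2 too, at −0.16, beside −0.15 for Agpat3, −0.25 for Slc25a20, −0.19 for Acadl and −0.23 for Cd36, while that of Pnpla3 was −1.22.

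Of the 7 genes with an adjusted p under 0.1 for pair-feeding against vehicle, 4 are in the list of 13 PPAR targets of muscle, and Pnpla3, Fitm2 and Agpat3 are in other lists. PPARs are the nuclear receptors that fatty acids activate. In that list 12 of 13 genes had a negative log2 fold change for pair-feeding against vehicle (median −0.36), and 12 of 13 for GDF15 against vehicle (median −0.28), 2 comparisons that share the vehicle libraries. For GDF15 against pair-fed 8 of 13 were positive (median 0.07). In the list of droplet coat and droplet formation genes, 6 of 12 were higher and 6 lower in each of the 3 comparisons. Triglyceride synthesis had 5 of 11 higher, the other lipases and regulators of lipolysis 3 of 10 and lipoprotein lipolysis 1 of 5 (median −0.28), for pair-feeding against vehicle. Of all tested genes 5893 of 11841 were lower in that comparison, and no list was tested against the others. All lists were chosen with earlier results of these data known. Over all 51 genes the median was −0.09 for GDF15 and −0.09 for pair-feeding against vehicle, and 0.04 for GDF15 against pair-fed.

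Between GDF15-treated and vehicle-treated mice 0 of the 51 genes were called by limma and 0 passed the adjusted p alone, while 13 had an unadjusted p under 0.05, of which 12 were lower. That count was 15, all lower, for pair-feeding against vehicle and 5, of which 2 were higher, for GDF15 against pair-fed, beside the shares of all tested genes given above. On the deposited log2 scale, which compresses low counts, 0 were called as well for GDF15 against vehicle, which says little about the low genes. Groups did not overlap for 1 gene in that comparison, Gpam, the first enzyme of glycerolipid synthesis, at 4229 to 4743 with vehicle and 3643 to 4112 with GDF15. For pair-feeding against vehicle 4 genes did not overlap (Fitm2, Pnpla3, Lmf1 and Cd36, all lower), and for GDF15 against pair-fed it was Pnpla3 alone. Gpam and Lmf1 were named after their values were seen. Beside all tested genes, 1.65%, 5.44% and 1.77% of which did not overlap in these comparisons, the 51 genes gave 1, 4 and 1.

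**Figure D4:**
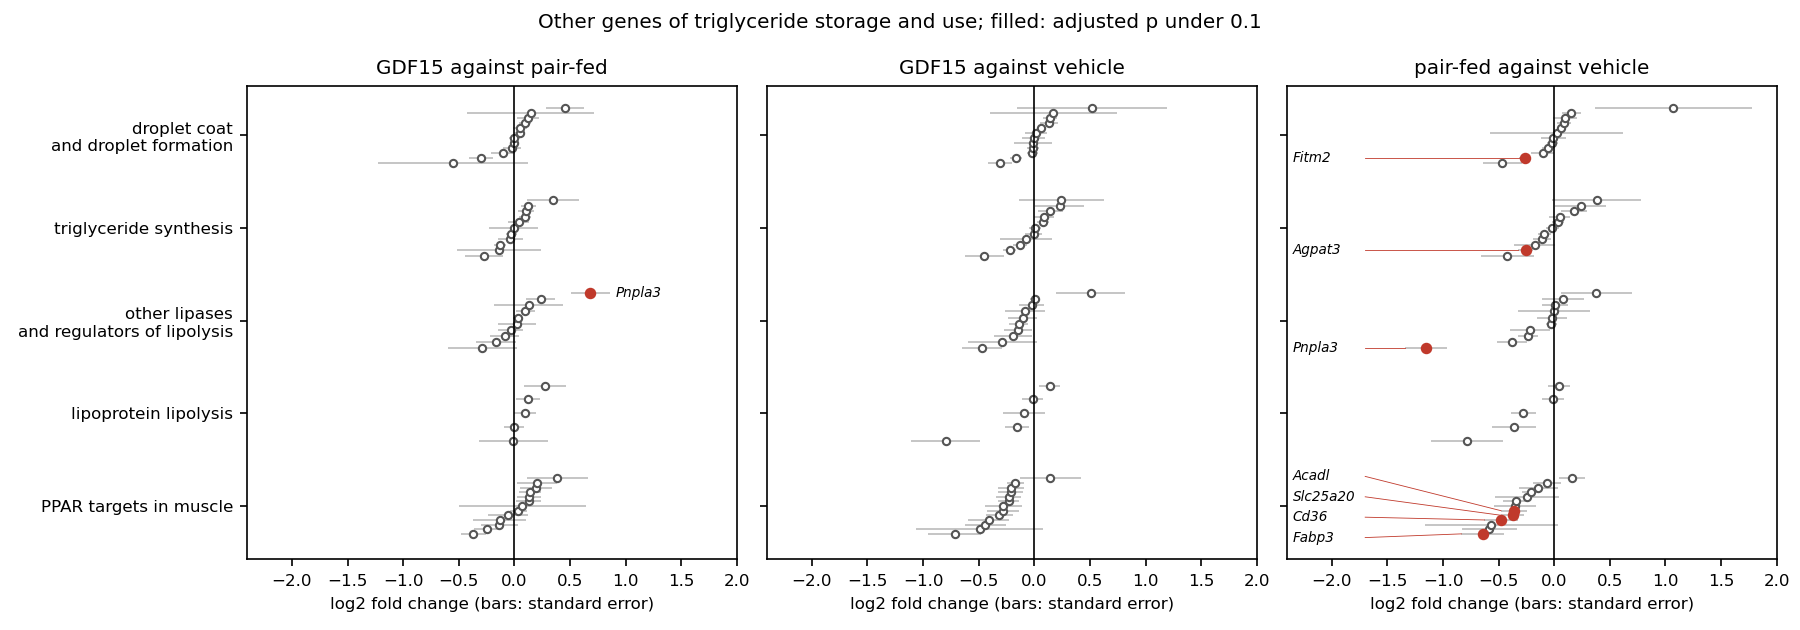
Log2 fold changes (horizontal axes, bars for the standard error) of 51 other genes of triglyceride storage and use in 5 lists, in the 3 comparisons, with filled and named points at an adjusted p under 0.1. Pair-feeding against vehicle has 7 filled points, all to the left of 0, GDF15 against pair-fed has Pnpla3 alone and GDF15 against vehicle has none.

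The exons of Abhd5, Lipe, Mgll and Plin4 overlap those of a gene on the opposite strand (A730085K08Rik, 4732471J01Rik, Gm26588 and Hdgfl2). The library kit marks strand, but the sources used here do not give the strand setting of the counting, so reads of these overlaps cannot be assigned with certainty. G0s2, Pnpla2, Plin2, Plin5, Dgat2 and Cidea have no such overlap.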

How the data were processed

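RNA was extracted with TRIzol and RNeasy columns, and libraries made with the NEBNext Ultra II Directional kit were sequenced as read pairs of 50 bp on an Illumina NextSeq. Per the submitters' processing notes, the tools were Trim Galore for trimming, Salmon for quantification and DESeq2 for scaling, with mm10 as the build; versions, annotation and strand setting are not given in the sources used here. The authors deposited log2 values, 1 per gene and library, between 7.32 and 19.96, which have the shape that DESeq2 gives when it stabilizes the variance, with 8459 values at the lowest. They were transformed back to normalized counts with the closed-form inverse; if the authors used another transformation, the counts would differ. Of the low values of single-transcript genes, 90.2% to 96.6% per library were then within 0.1 of a whole multiple of a common step, the value of 1 read, and 19.8% to 26.6% in genes with more than 4 transcripts, so whole reads were not recovered and no count test was run. Summed counts divided by the step gave the approximate depth.

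Genes with a mean of at least 10 were fitted with limma 3.58.1 (R 4.3.3, eBayes with a trend) on log2(normalized count + 1), all 3 groups together, adjusted by Benjamini-Hochberg over 11841 genes, and called at an adjusted p under 0.1 and a log2 fold change over 0.6, the thresholds of the study for this muscle. Fold changes on this scale understate those of low genes, and the deposited log2 scale does so much more strongly. Tests are two-sided. Correlations used deviations from group means with 100000 permutations within groups (Python 3.11.15, numpy 2.4.6, scipy 1.17.1, pandas 2.3.3). Positions are from GENCODE vM21, in which 14286 symbols were found; Spart was matched as Spg20, Cideb, Mogat2 and Angptl8 are not in the table used, and Mogat1 was under the minimum.

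The 10 genes and all lists were chosen with earlier results of these data known. The text names all 10 genes, each other listed gene with an adjusted p under 0.1, the 3 genes most like G0s2, Pnpla2, Plin5 and Cidea, and markers by list; Myh2, the other fibre and fat cell markers given singly, Gpam, Lmf1, Angptl4 and Pdk4 were singled out after their values were seen. Each library is a separate mouse. Scripts were tested on simulated data. Alternatives were other pseudocounts, minimums, scalings, variance models, weights, covariates and thresholds, the deposited values themselves, and each library left out in turn.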

Additional observations from a re-analysis of the deposited data

Results flagged for a closer look

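Of 54 groups of values of the 10 genes and marker sums, 2 held a mouse that stood apart from the others by Dixon's test at 95%, which chance gives in about 1 of 20 groups. Plin5 in Vehicle mouse 2 was the highest of its group at 851 normalized counts, against 705 for the next and 667 for the lowest. Without that mouse the log2 fold change of Plin5 for pair-feeding against vehicle was −0.64 and was not called. The sum of white adipocyte markers in PairFed mouse 4 was 655, against 315 for the next and 254 for the lowest of that group.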

How the results depend on the processing

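Of 897 fold changes of the 10 genes under alternatives, 894 moved by less than the residual SD and no called value changed sign. The 3 that moved by more include both called values: G0s2 for GDF15 against pair-fed (0.61 to 0.25 on the deposited log2 values) and Plin5 for pair-feeding against vehicle (−0.70 to −0.30 with Myh2 as a covariate), beside Cidea in the latter comparison (−0.91 to −0.13 on the deposited values). The deposited log2 scale compresses low counts, so the smaller values of G0s2 and Cidea on it follow from the scale. G0s2 was called between GDF15-treated and pair-fed mice in 20 of 30 alternatives (log2 fold change 0.25 to 0.70) and Plin5 between pair-fed and vehicle-treated mice in 19 of 30 (−0.83 to −0.30); the lowest sizes came from the deposited log2 values for G0s2 and from Myh2 as a covariate for Plin5. At a minimum of 50 counts Cidea and Pnpla3 were not tested.

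Among the 51 other listed genes, the count for GDF15 against pair-fed was 0 in place of 1 with only the compared groups fitted, with Myh2 or log2 depth as a covariate, on the deposited values, at a minimum of 50, with no minimum, after quantile normalization and at an adjusted p under 0.05. For pair-feeding against vehicle it was 1 in place of 2 with Myh2, on the deposited values, at a minimum of 50, with no trend and at 0.05, and 7 without the fold threshold. For GDF15 against vehicle it was 1 (Angptl4) with the adipocyte markers as a covariate. With a library left out the counts were 0 to 1 for GDF15 against pair-fed, 0 for GDF15 against vehicle and 1 to 4 for pair-feeding against vehicle, where the 4 came without PairFed mouse 4 (Angptl4 and Pdk4 added).

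In the same order, all tested genes gave 33, 36 and 97 calls. The deposited values gave 7, 9 and 17, no fold threshold 257, 91 and 754, and an adjusted p under 0.05 gave 18, 23 and 56. Myh2 as a covariate gave 15 in the first and 33 in the last, and log2 depth gave 19 in the second. Libraries left out gave 15 to 62, 18 to 38 and 60 to 158, with both highest values of the outer comparisons without PairFed mouse 3 and both lowest without PairFed mouse 5; PairFed mice 2 and 6 also moved both by over 1.5 times (17 and 18, 63 and 61), GDF15 mice 2 and 4 the first (21 and 19), and GDF15 mouse 2 and Vehicle mice 2, 3 and 5 the second (21, 21, 22 and 18). The count of the 10 genes correlated with the adipocyte markers was 0, also with any library left out, and 4 with Myh2 in their place; Myh2 was chosen after its values were seen, so nothing is read from this count, and without GDF15 mouse 6 and PairFed mouse 2 the unadjusted permutation p was 0.0374 for Plin5, 0.0712 for Pnpla2, 0.13 for Dgat2 and 0.231 for Plin4. Apart from the compression of low counts on the deposited scale, the cause of these shifts was not tested.

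Mice with the same number in different groups did not deviate together over all tested genes (r −0.10 to 0.07 over 14 pairs, against −0.11 to 0.19 for other pairs). This does not settle whether the numbers follow feeding pairs or a batch, which the sources used here do not say. A replicate block gave 29, 20 and 81 calls over all genes and 0, 0 and 1 among the 51; G0s2 (0.60, under the fold threshold) and Plin5 (−0.61) were then not called. Depth limits the low genes most, here Cidea, Pnpla3 and G0s2.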
